A study of Mus musculus with 12 samples.

Results

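The genes of 8 dual-specificity MAP kinase phosphatases were followed in splenic CD4+ T cells, Dusp1, Dusp2, Dusp4, Dusp5, Dusp6, Dusp7, Dusp10 and Dusp16. They were chosen by name, 8 of the 23479 gene symbols listed, and all 8 were expressed above the filter on low counts. RNA had been sequenced from 12 libraries as 3 for each genotype and time, called WT or KO with the time, such as WT 0 h. WT cells came from C57BL/6J mice and KO cells from Sirt2-/- mice, which lack the NAD-dependent deacetylase SIRT2, and all carry the C57BL/6 strain label. The 0 h cells were unstimulated (called naïve in the labels), lysed straight after negative enrichment, and the 24 h cells had been cultured on plate-bound anti-CD3 antibody (clone 145-2C11, 5 µg/ml), with no second stimulus named. The labels do not give age, sex, the part of Sirt2 removed or the relation of WT to KO mice, nor whether each replicate was another mouse, so p-values reflect how far libraries of a group differed, possibly for technical reasons alone.

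MAP kinases are switched on by phosphate groups on a threonine and a tyrosine of their activation loop, and the enzymes encoded by these genes remove both. The inducible nuclear phosphatases DUSP1, DUSP2, DUSP4 and DUSP5 act in the nucleus, DUSP5 mainly on ERK. DUSP6 and DUSP7 are cytoplasmic and prefer ERK, while DUSP10 and DUSP16 prefer the stress kinases JNK and p38. In T cells the receptor complex that contains CD3 starts the Ras, RAF, MEK and ERK cascade, and several of these phosphatase genes are known as early targets of that cascade, which makes them its feedback brakes. Dusp1 is also known to respond within minutes to cell stress.

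Each library held 3.63 to 10.0 megareads in genes. Sirt2 lay between 62.3 and 85.4 CPM (counts per megaread) in the 6 WT libraries and between 9.04 and 19.7 CPM in the 6 KO libraries. Levels in CPM are counts scaled by library size and normalisation factors. The T cell markers Cd3e and Cd4 were high in every group, Cd4 at 1560 to 1840 CPM in KO cells at 0 h and 1570 to 1690 CPM in WT 0 h, while Cd8a did not exceed 2.26 CPM and Cd8b1 33.5 CPM in any library. Summed over 8 T cell markers the level was 6190 to 7270 CPM at 0 h and 2920 to 3310 CPM at 24 h. The ribosomal RNA precursor Rn45s took 12.5% to 17.5% of gene reads at 0 h and 7.95% to 9.55% at 24 h. In bulk libraries fewer cells of a type and less RNA per cell cannot be told apart, and CPM gives each RNA relative to all others, not its amount per cell.

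Promoter sequences of 7 of the 8 genes, all but Dusp4, were found in the RefSeq set used (GRCm38.p6). The 250 bases before the start are shown for the 3 genes that fell over 24 h, Dusp1, Dusp5 and Dusp7. They are also shown for Dusp10, which was highly expressed at both times. Coordinates are those of RefSeq and not of the deposited counts, whose build is uncertain. Capitals mark matches to a CRE (TGACGTCA, the site known to bind CREB), an E-box (CACGTG) or a CArG box (the site known to bind SRF). Each sequence is written 5′ to 3′ on the strand of its gene.
Dusp1 (chr17:26508473-26508722, minus strand): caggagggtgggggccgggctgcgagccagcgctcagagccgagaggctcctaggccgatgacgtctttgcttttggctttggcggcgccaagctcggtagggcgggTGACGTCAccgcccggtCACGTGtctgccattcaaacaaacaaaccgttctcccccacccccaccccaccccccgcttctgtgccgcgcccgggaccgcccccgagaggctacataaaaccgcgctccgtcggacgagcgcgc
Dusp5 (chr19:53528895-53529144, plus strand): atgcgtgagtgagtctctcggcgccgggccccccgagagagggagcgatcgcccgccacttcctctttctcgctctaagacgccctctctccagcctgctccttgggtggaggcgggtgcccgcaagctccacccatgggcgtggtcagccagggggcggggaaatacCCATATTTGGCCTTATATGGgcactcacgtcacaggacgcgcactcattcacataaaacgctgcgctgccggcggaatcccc
Dusp7 (chr9:106368382-106368631, plus strand): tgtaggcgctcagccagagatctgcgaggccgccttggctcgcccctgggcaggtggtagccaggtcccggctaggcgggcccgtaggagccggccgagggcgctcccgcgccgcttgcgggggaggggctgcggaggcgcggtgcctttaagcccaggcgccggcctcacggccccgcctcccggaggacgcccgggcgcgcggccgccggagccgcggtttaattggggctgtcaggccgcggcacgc
Dusp10 (chr1:184034131-184034380, plus strand): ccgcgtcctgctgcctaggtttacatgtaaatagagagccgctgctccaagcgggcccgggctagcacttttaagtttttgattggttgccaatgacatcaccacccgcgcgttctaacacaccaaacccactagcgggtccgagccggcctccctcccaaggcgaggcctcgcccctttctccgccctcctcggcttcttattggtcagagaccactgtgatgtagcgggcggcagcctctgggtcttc

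The Dusp1 window held 1 CRE, 143 to 136 bases before the start, and 1 E-box, 126 to 121 bases before it. Of all 32851 promoter windows of this length 1.55% held the CRE and 6.02% the E-box, searched on both strands. The Dusp5 window held 2 CArG boxes end to end, 82 to 73 and 72 to 63 bases before the start, a motif found in 1.47% of all windows. The windows of Dusp7 and Dusp10 held none of these 3 motifs, and among the others the E-box alone recurred, in Dusp2, 109 to 104 bases before the start. The AP-1 site TGACTCA (4.46% of windows), the EGR site GCGTGGGCG (0.536%), the ETS site CCGGAAGT (2.88%) and the NF-kappaB site (7.25%) matched in none of the 7 windows. The GC box GGGCGG (32.7% of windows) stood in those of Dusp1, Dusp2, Dusp5, Dusp10 and Dusp16, in 5 copies in Dusp16, of which 2 share a base. CCAAT (33.8% of windows) stood in those of Dusp6, Dusp7, Dusp10 and Dusp16. A match describes the letters only.

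Freshly isolated cells of both genotypes carried far more Dusp1 than any other of the 8 transcripts. To set genes side by side, CPM were divided by the length of each gene's principal transcript (GENCODE M21), giving CPM per kilobase (kb). On this scale Dusp1 had a level of 492 ± 36.8 CPM per kb in WT 0 h (SD, n = 3), and 98.8% of 10373 tested genes with a known length lay below it. Dusp10 followed with 147 ± 13.5 CPM per kb, then Dusp5 with 59.5 ± 5.34, Dusp2 with 59.0 ± 10.3 and Dusp7 with 47.1 ± 1.90. Dusp6 had 20.2 ± 1.02, Dusp4 had 7.91 ± 2.18 and Dusp16 had 0.961 ± 0.0795 CPM per kb. The ranges of Dusp5 and Dusp2 overlapped, and those of all other neighbours in this order did not. In KO 0 h Dusp1 (460 ± 9.25 CPM per kb) and Dusp10 (145 ± 26.4) led again, and the ranges of Dusp2 (52.1 ± 4.85), Dusp5 (47.5 ± 1.59) and Dusp7 (46.7 ± 4.74) overlapped one another.

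After 24 h on anti-CD3 the order had changed, with Dusp10 first and Dusp1 in place 3 in both genotypes. In WT 24 h the levels were 136 ± 9.57 CPM per kb for Dusp10, 52.1 ± 6.12 for Dusp2, 37.5 ± 1.22 for Dusp1 and 36.5 ± 3.39 for Dusp5, the last pair with overlapping ranges. Dusp7 (29.9 ± 0.660), Dusp6 (23.4 ± 0.984), Dusp4 (11.6 ± 1.46) and Dusp16 (1.55 ± 0.113) followed without overlap between neighbours. In KO 24 h the order was the same, from 150 ± 5.79 CPM per kb for Dusp10 to 1.30 ± 0.260 for Dusp16, again with overlap of Dusp1 (38.4 ± 3.40) and Dusp5 (35.2 ± 0.628). Dusp10 encodes the JNK and p38 phosphatase, and 96.8% of the genes ranked lay below it in WT 24 h.

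The make-up of the family changed with it. The summed level of the 8 genes was 833 ± 19.8 CPM per kb in WT 0 h and 329 ± 8.42 in WT 24 h, and 778 ± 31.4 in KO 0 h and 338 ± 11.0 in KO 24 h. Without Dusp1 the sums were 342 ± 17.9 and 291 ± 9.18 CPM per kb in WT and 318 ± 22.5 and 299 ± 13.1 CPM per kb in KO, so that Dusp1 carried most of the difference. Its share of the sum was 59.0% ± 3.03 in WT 0 h and 11.4% ± 0.585 in WT 24 h, and 59.2% ± 1.29 and 11.4% ± 1.26 in KO. Over the same time the share of Dusp10 went from 17.7% ± 2.01 to 41.4% ± 2.49 in WT and from 18.6% ± 2.70 to 44.3% ± 1.23 in KO, while its CPM did not pass the test in either genotype.

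**Figure D1:**
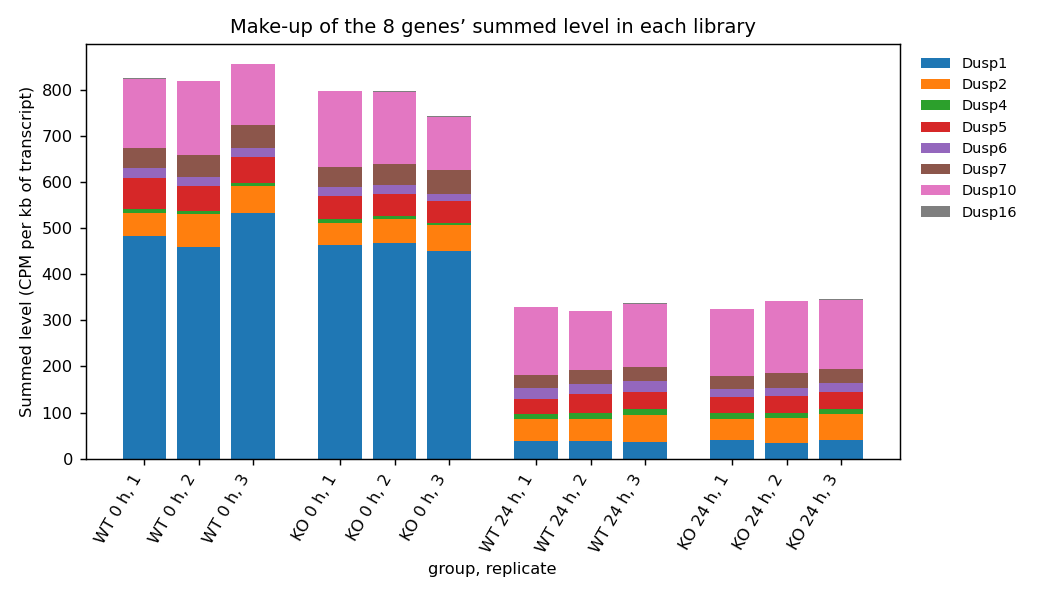
Stacked level of the 8 genes in each of the 12 libraries (y axis, summed CPM per kb of transcript; x axis, group and replicate; colours, genes). The 6 libraries at 0 h reach 742 to 856 CPM per kb, with Dusp1 as the largest block, and the 6 at 24 h reach 320 to 346, with Dusp10 as the largest.

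Of the 8 genes 3 were lower and 1 was higher at 24 h, the same ones in both genotypes. No 24 h culture without anti-CD3 is among the groups, so stimulation, time in culture and the end of isolation cannot be told apart. Dusp1, Dusp5 and Dusp7 fell and Dusp4 rose in WT and in KO, while Dusp2, Dusp6, Dusp10 and Dusp16 did not pass the test in either. The threshold was 0.05 on p-values of edgeR's quasi-likelihood test, adjusted by Benjamini and Hochberg's method over 10981 genes. Of all genes tested 20.5% were lower and 20.2% higher at 24 h in WT, and 21% lower and 19.4% higher in KO, so the members' counts of 3 and 1 of 8 are read against those shares. At an unadjusted p below 0.05 stood 5 of 8 in WT, beside 47.6% of all genes, and 4 of 8 in KO, beside 47.7%. The median log2 fold change of the 8 was -0.15 in WT and -0.05 in KO, beside 0.00 over all genes tested. The comparisons within WT and within KO share no library.

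Among the inducible nuclear phosphatases, Dusp1 had the largest change. It stood at 961, 915 and 1060 CPM in WT cells at 0 h and at 77.0, 75.1 and 72.1 CPM in WT cells at 24 h. In KO it stood at 923, 930 and 895 CPM at 0 h and at 81.5, 68.7 and 78.9 CPM at 24 h. Every 24 h library lay below every 0 h library by an order of magnitude. The log2 fold change was -3.71 in WT (standard error 0.0940, adjusted p = 1.29e-32 by edgeR), which is 13.1-fold lower, and -3.59 in KO (standard error 0.0948, adjusted p = 7.88e-32 by edgeR), which is 12-fold lower. By unadjusted p Dusp1 ranked 4 of all genes tested in both comparisons, and by the size of the fall it ranked 40 in WT and 43 in KO. Its exons share 11 bases with Ergic1 on the other strand, and reads within that stretch cannot be told apart without a stated strand setting.

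Beside the fall of Dusp1 stood those of genes known to be induced while cells are isolated. Of 13 tested genes of that list 9 fell and 3 rose in each genotype, with a median log2 fold change of -1.92 in WT and -1.69 in KO. The AP-1 gene Fos went from 330 ± 23.2 to 8.51 ± 1.37 CPM in WT (log2 -5.26, standard error 0.127, adjusted p = 3.65e-33 by edgeR) and had a log2 fold change of -5.29 in KO. Fosb fell too (log2 -5.20 in WT and -4.67 in KO), as did Junb (log2 -3.17 and -3.27). The 3 that rose were Atf3 (log2 4.97 in WT and 5.17 in KO), Nr4a1 (log2 1.72 and 1.86) and Egr1 (log2 1.31 in both). Summed over the 14 genes listed, the level was 5750 to 6330 CPM in WT 0 h, 5240 to 5430 in KO 0 h, 3370 to 4210 in WT 24 h and 3110 to 3410 in KO 24 h. The part of isolation in the Dusp1 level at 0 h was not tested. Markers of residual B cells, over 7 genes, summed to 16.9 to 29.9 CPM at 0 h and 2.93 to 7.22 CPM at 24 h, and those of NK cells, over 3 genes, to 23.3 to 40.7 CPM and 2.81 to 7.67 CPM. The 6 myeloid markers found summed to at most 8.79 CPM, with Cd14 without a read in WT 0 h, KO 0 h and KO 24 h, and the 4 dendritic cell markers to at most 5.83 CPM. Of 3 erythroid markers Hba-a1 and Hbb-bs had no read in any library. The part of such residual cells in the Dusp1 fall was not tested.

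Dusp5, the nuclear ERK phosphatase whose promoter window carries the paired CArG boxes, fell less. It had 162, 138 and 141 CPM in WT cells at 0 h and 82.0, 98.7 and 90.3 CPM in WT cells at 24 h. In KO it had 121, 118 and 114 CPM at 0 h and 85.5, 87.2 and 88.6 CPM at 24 h. Neither genotype showed overlap between the times. The log2 fold change was -0.70 in WT (standard error 0.0957, adjusted p = 5.38e-08 by edgeR) and -0.43 in KO (standard error 0.0983, adjusted p = 0.000341 by edgeR). Dusp5 exons share 547 bases with AC137853.2 on the other strand, so reads within that stretch cannot be told apart either.

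Dusp4 was the gene that rose. It encodes a nuclear phosphatase of ERK and other MAP kinases and stood at 28.6, 18.3 and 18.1 CPM in WT cells at 0 h and 27.1, 34.2 and 33.9 CPM in WT cells at 24 h. In KO it stood at 22.8, 17.8 and 13.4 CPM at 0 h and 31.3, 33.7 and 34.8 CPM at 24 h. WT replicate 1 at 0 h was high, so that the WT ranges overlapped, and the KO ranges did not. The log2 fold change was 0.57 in WT (standard error 0.178, adjusted p = 0.00815 by edgeR) and 0.86 in KO (standard error 0.183, adjusted p = 0.000156 by edgeR). Without WT 0 h replicate 3 the WT rise was 0.48 and missed the threshold (edgeR QL, BH-adjusted p = 0.0564, over all alternatives 0.000668 to 0.0564).

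Dusp2, known as a phosphatase of activated T cells, did not pass in either genotype. Its levels were 79.2, 112 and 94.7 CPM in WT cells at 0 h and 77.6, 79.5 and 95.6 CPM in WT cells at 24 h. The KO libraries had 76.8, 83.6 and 92.4 CPM at 0 h and 74.5, 86.0 and 91.3 CPM at 24 h. All 4 groups overlapped. The log2 change over time was -0.18 in WT (95% interval -0.41 to 0.05, adjusted p = 0.206 by edgeR), and in KO the level at 24 h was 0.997 times that at 0 h (log2 interval -0.24 to 0.23, adjusted p = 0.982 by edgeR).

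The cytoplasmic ERK phosphatases parted. Dusp7 had 145, 153 and 156 CPM in WT cells at 0 h and 93.6, 97.7 and 96.7 CPM in WT cells at 24 h, and 140, 143 and 168 CPM in KO cells at 0 h and 94.8, 105 and 100 CPM in KO cells at 24 h. All 24 h libraries lay below all 0 h libraries, with a log2 fold change of -0.66 in WT (standard error 0.0931, adjusted p = 1.09e-07 by edgeR) and -0.58 in KO (standard error 0.0945, adjusted p = 1.78e-06 by edgeR). Dusp6, a feedback target of ERK in many cell types, had 59.8, 54.7 and 54.9 CPM in WT cells at 0 h and 64.7, 63.1 and 68.5 CPM in WT cells at 24 h. In KO it had 58.5, 55.7 and 46.3 CPM at 0 h and 48.1, 48.6 and 54.2 CPM at 24 h. The WT libraries did not overlap between the times and the KO libraries did, but neither change passed, with log2 0.21 in WT (95% interval -0.02 to 0.45, adjusted p = 0.135 by edgeR) and -0.10 in KO (-0.34 to 0.14, adjusted p = 0.548 by edgeR). In WT 2 members were higher at 24 h without overlap (Dusp6 and Dusp16) and 3 lower, as 24.6% and 24.8% of all genes were. In KO 1 was higher (Dusp4) and 3 lower, as 23.9% and 25.5% of all genes were, so that lack of overlap was common, at 49.3% of all genes in WT and 49.4% in KO.

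Of the phosphatases of JNK and p38, Dusp10 was abundant and Dusp16 scarce. Dusp10 had 415, 445 and 370 CPM in WT cells at 0 h and 407, 353 and 382 CPM in WT cells at 24 h, and 457, 438 and 321 CPM in KO cells at 0 h and 403, 435 and 416 CPM in KO cells at 24 h. KO 0 h replicate 3 was the lowest of the 12 libraries, and the times overlapped in both genotypes. The log2 change was -0.11 in WT (95% interval -0.30 to 0.08) and 0.04 in KO (-0.15 to 0.24). Dusp16 had 5.37, 4.71 and 4.63 CPM in WT cells at 0 h and 8.24, 7.23 and 8.23 CPM in WT cells at 24 h, from only 31 to 63 reads a library. In KO it had 5.26, 5.49 and 3.58 CPM at 0 h and 5.31, 6.64 and 7.96 CPM at 24 h, from 19 to 49 reads. The WT libraries did not overlap, and the change missed the threshold (log2 0.69, 95% interval 0.06 to 1.31, adjusted p = 0.0718 by edgeR). In KO the times overlapped (log2 0.45, 95% interval -0.20 to 1.10, adjusted p = 0.28 by edgeR).

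**Figure D2:**
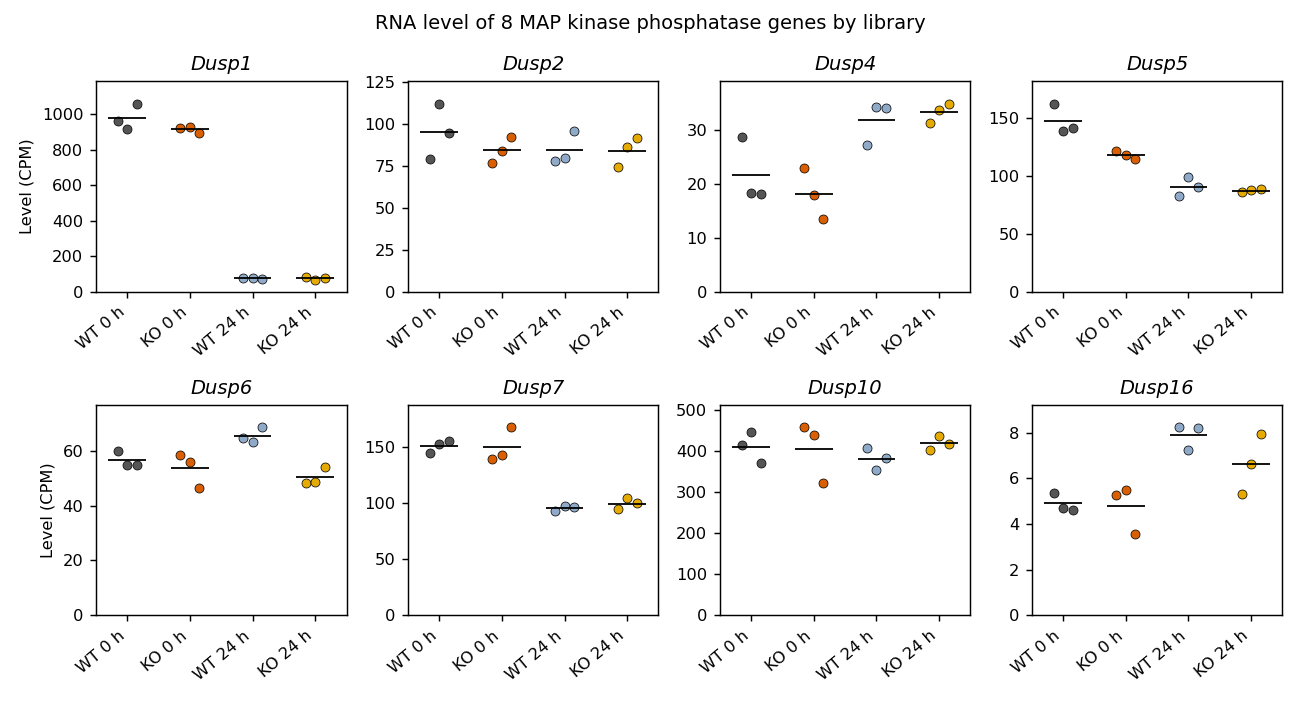
Level of each gene (y axis, CPM, from 0) in the 3 libraries of each group (points) with the group mean (line). Dusp1 drops from 895 to 1060 CPM at 0 h to 68.7 to 81.5 CPM at 24 h, Dusp5 and Dusp7 fall less, Dusp4 rises, and Dusp2 and Dusp10 overlap between all groups.

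**Figure D3:**
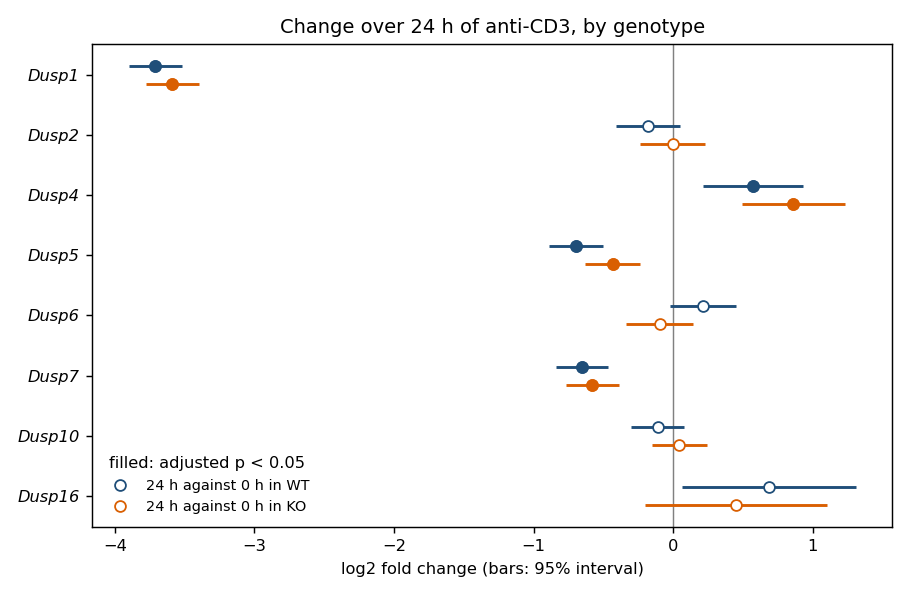
Log2 fold change of 24 h against 0 h (x axis) for each gene in WT (blue) and KO (orange), with 95% intervals as bars and filled points where the test passed. Filled points are Dusp1, Dusp5 and Dusp7 on the left and Dusp4 on the right, in both genotypes.

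None of the 8 genes differed between the genotypes by the test. At 0 h 0 of 8 passed with edgeR and 0 with DESeq2, where 0.346% of all tested genes passed with edgeR (0.118% higher and 0.228% lower), and 1 had an unadjusted p below 0.05, as 8% of all genes did. At 24 h 0 of 8 passed with either tool, where 0.273% of all genes passed (0.182% higher and 0.0911% lower), and 1 had an unadjusted p below 0.05, as 7.06% of all genes did. All 8 log2 fold changes at 0 h lay between -0.32 and -0.02, with a median of -0.08 beside 0.00 over all genes. At 24 h they lay between -0.38 and 0.14 with a median of 0.01.

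Dusp5 was the one with the unadjusted p below 0.05 at 0 h. All 3 KO libraries (114 to 121 CPM) lay below all 3 WT libraries (138 to 162 CPM), as 6.37% of all genes were, beside 6.04% that were higher without overlap and 12.4% in all, with log2 -0.32 (standard error 0.0945, 95% interval -0.51 to -0.13, unadjusted p = 0.00146, adjusted p = 0.171 by edgeR). In percent that is a difference of -19.9%, with an interval from -29.8% to -8.65%. At 24 h the genotypes overlapped and the log2 fold change was -0.06 (95% interval -0.26 to 0.14). Other sums parted the same libraries at 0 h. The summed level of the isolation genes given above was lower in every KO library, although Fos (log2 0.16) and Fosb (log2 0.10) were not lower in KO. Of that list 1 of 13 passed, namely Zfp36, whose product drives RNA decay (log2 -0.47, standard error 0.0834, adjusted p = 0.00136 by edgeR). CD8 T cell markers summed to 30.8 to 35.8 CPM in KO cells at 0 h and 17.3 to 18.5 CPM in WT 0 h. Most of this was Cd8b1, at 30 to 33.5 CPM in KO 0 h and 17 to 17.7 CPM in WT 0 h. Cd8a was near 0 and overlapped between the genotypes, at 0.484 to 2.26 CPM in KO 0 h and 0.346 to 1 CPM in WT 0 h. NK cell markers summed to 31.5 to 40.7 CPM in KO 0 h and 23.3 to 29.6 CPM in WT 0 h. The sums of T cell, B cell, myeloid and dendritic cell markers overlapped between the genotypes. Within the B cell list only Cd22 did not overlap, at 1.18 to 1.45 CPM in KO 0 h and 5.4 to 10.8 CPM in WT 0 h. Of 3 tested B cell markers 1 passed, lower in KO. The part of these genes and cells in the Dusp5 difference was not tested.

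Dusp6 was the corresponding gene at 24 h. Every KO library (48.1 to 54.2 CPM) lay below every WT library (63.1 to 68.5 CPM), as 7.19% of all genes were, beside 5.74% that were higher without overlap and 12.9% in all, with log2 -0.38 (standard error 0.118, 95% interval -0.62 to -0.14, unadjusted p = 0.00228, adjusted p = 0.27 by edgeR). At 0 h the log2 fold change was -0.07 (95% interval -0.30 to 0.16). Depth differed in the same direction on average, with 3.63 to 5.33 megareads in KO 24 h and 4.68 to 8.02 megareads in WT 24 h, and Dusp6 rested on 218 to 278 reads in KO and 322 to 550 in WT. The part of depth was not tested.

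The interval of the genotype difference was narrower for Dusp1, Dusp10 and Dusp7 than for Dusp4 and Dusp16. The difference of KO from WT lay between -16.4% and 4.97% for Dusp1 at 0 h and between -10.6% and 16.6% at 24 h. For Dusp10 the interval ran from -13.5% to 13.2% at 0 h and from -3.97% to 25.9% at 24 h, and for Dusp7 from -13% to 12.3% and from -9% to 19%. At 0 h it ran from -25.1% to 2.98% for Dusp2 and from -34.2% to 10.3% for Dusp4. At 24 h it ran from -15.6% to 16.9% for Dusp2 and from -18.6% to 33.2% for Dusp4. For Dusp16, with its few reads, it ran from -37% to 54.4% at 0 h and from -45.8% to 29% at 24 h.

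**Figure D4:**
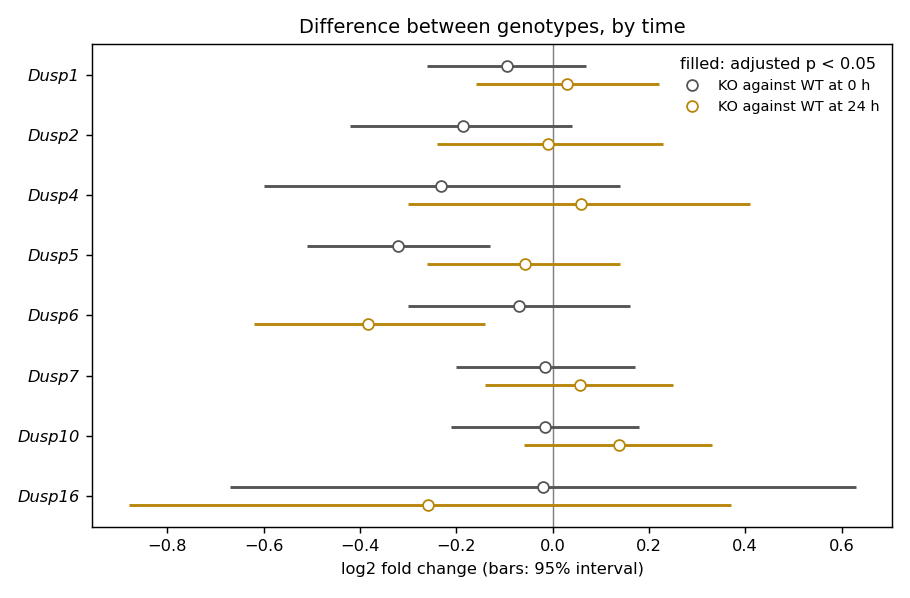
Log2 fold change of KO against WT (x axis) for each gene at 0 h (grey) and 24 h (dark yellow), with 95% intervals as bars. All points are open, as 0 of 8 passed at either time, and the bars that miss 0 are those of Dusp5 at 0 h and Dusp6 at 24 h.

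Whether the change over 24 h differed between the genotypes was tested as an interaction. Of the 8 genes 0 passed with edgeR and 0 with DESeq2, and 0 had an unadjusted p below 0.05, where 0.00911% of all genes passed and 5.24% had such a p. Dusp5 and Dusp6 came nearest. The Dusp5 fall was 0.26 smaller on the log2 scale in KO (95% interval -0.01 to 0.54, unadjusted p = 0.0616, adjusted p = 0.952 by edgeR). For Dusp6 the change was 0.31 lower in KO (log2 -0.31, 95% interval -0.65 to 0.02, unadjusted p = 0.0657, adjusted p = 0.952 by edgeR). The interaction was 0.12 for Dusp1 (95% interval -0.13 to 0.38), 0.29 for Dusp4 (-0.23 to 0.80) and 0.15 for Dusp10 (-0.12 to 0.43).

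Some genes of the kinases that these phosphatases act on, and of their activators, passed the test over time. Of all genes tested 40.7% passed over time in WT and 40.4% in KO. The counts of each list over time are read against those shares. Of 7 tested MAP kinase genes 1 rose and 2 fell in each genotype. Mapk3, which encodes ERK1, went from 46.5 ± 1.78 to 27.4 ± 0.594 CPM in WT (log2 -0.76, standard error 0.131, adjusted p = 4.9e-06 by edgeR) and from 54.4 ± 4.35 to 31.5 ± 2.30 CPM in KO (log2 -0.78). Mapk14, which encodes p38 alpha, fell by 0.64 on the log2 scale in WT and by 0.56 in KO. Mapk9, which encodes JNK2, rose by 0.61 and 0.49. Of the 7 MAP kinase kinase genes 2 rose and 1 fell in WT and 2 rose in KO. Map2k3, an activator of p38, rose from 19.5 ± 5.05 to 89.4 ± 8.21 CPM in WT (log2 2.18, standard error 0.156, adjusted p = 1.78e-14 by edgeR) and from 26.0 ± 7.29 to 76.5 ± 4.22 CPM in KO (log2 1.56, standard error 0.155, adjusted p = 1.11e-10 by edgeR). The p38 activator gene Map2k6 fell in WT (log2 -0.81) and did not pass in KO (log2 -0.57). Map2k7, of the JNK route, rose in WT (log2 0.24) and did not pass in KO (log2 0.13), and the other JNK activator gene Map2k4 rose in KO (log2 0.36) and did not pass in WT (log2 0.08). None of the 3 passed the interaction test.

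Upstream, 6 of 11 tested genes of the Ras and Raf route rose and 1 fell in WT, and 6 rose and 2 fell in KO, with a median log2 change of 0.31 and 0.27. Rasgrp1, the Ras activator of T cells, rose from 587 ± 56.8 to 895 ± 40.4 CPM in WT (log2 0.61, standard error 0.0834, adjusted p = 5.07e-08 by edgeR) and by log2 0.74 in KO. A pair of genes of Ras-inactivating proteins rose as well, Rasa1 (log2 0.68 and 0.48) and Nf1 (log2 0.64 and 0.86). Of 13 tested substrates and effector kinases 3 rose and 3 fell in WT and 3 rose and 4 fell in KO. Rps6ka1, which encodes a ribosomal S6 kinase activated by ERK, fell (log2 -1.09 and -1.03), as did Mknk2 (log2 -0.38 and -0.51). Elk4, a partner of SRF, rose (log2 0.38 in WT and 0.32 in KO), and the kinase gene Rps6ka5 fell (log2 -1.04 and -1.09).

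Other brakes on the route moved in both directions. Of 10 tested genes 3 rose and 3 fell in each genotype. Spry1, an inhibitor of the ERK route, rose from 29.9 ± 4.36 to 161 ± 2.63 CPM in WT (log2 2.42, standard error 0.113, adjusted p = 1.23e-22 by edgeR) and from 20.5 ± 2.22 to 158 ± 14.8 CPM in KO (log2 2.93, standard error 0.119, adjusted p = 7.63e-25 by edgeR). Spred1, a related inhibitor, rose by log2 1.92 and 1.43, and the adaptor gene Dok2 fell (log2 -0.73 and -0.79). Of 9 tested genes known to be induced through ERK 5 rose and 3 fell in WT, and 6 rose and 3 fell in KO, with a median of 1.20 and 1.31. Egr3 (log2 2.50 and 2.31) and Egr1 (log2 1.31 in both), zinc finger genes of the early response, rose while Fos fell as given above. This list shares 4 of its 11 genes with that of isolation.

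**Figure D5:**
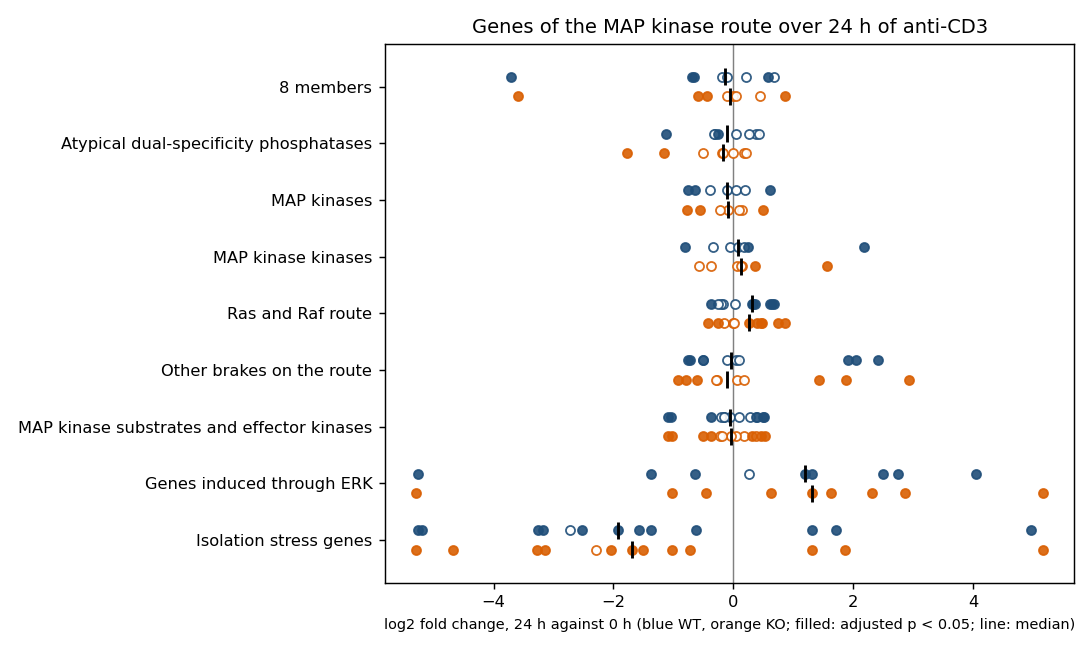
Log2 fold change of 24 h against 0 h (x axis) for the 8 phosphatase genes and the tested genes of each list (y axis), in WT (blue) and KO (orange), filled where the test passed, with the list median as a black line. The list medians of the kinases lie near 0, those of the genes induced through ERK at 1.20 and 1.31, and those of the isolation genes at -1.92 and -1.69.

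The relatives outside the 8 genes were mostly scarce. Dusp8, the remaining phosphatase of JNK and p38, had 40 reads over the 3 WT 0 h libraries and 0 over the 3 WT 24 h libraries, at least 13.3-fold lower against a floor of 3 counts over the group (edgeR QL, BH-adjusted p = 9.57e-05). In KO it had 27 reads at 0 h and 1 at 24 h, a ratio of 19.7 with a 95% exact counting interval of 3.25 to 807 (edgeR QL, BH-adjusted p = 0.007). Dusp9 was not tested, with 5 and 2 reads in WT and 0 and 4 in KO. Of 8 tested atypical dual-specificity phosphatases 2 fell and 0 rose in each genotype. Dusp23 fell in both (log2 -1.12 and -1.16), and Dusp11, an RNA phosphatase, fell in WT from 276 ± 5.03 to 232 ± 10.1 CPM (log2 -0.25, standard error 0.0817, adjusted p = 0.0121 by edgeR), with log2 -0.18 in KO, which did not pass. Dusp19 fell in KO (log2 -1.78) and did not pass in WT (log2 -0.33), and neither passed the interaction test. Counting intervals and floors cover counting error only.

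Between the genotypes few genes of the route passed. At 0 h Spry1 was lower in KO (log2 -0.53, standard error 0.127, adjusted p = 0.0419 by edgeR), 1 of 10 brakes, and Myc was lower (log2 -0.50, standard error 0.107, adjusted p = 0.0236 by edgeR), 1 of 9 genes induced through ERK, whose median was -0.36. At an unadjusted p below 0.05 stood 1 of 10 brakes, 4 of 9 genes induced through ERK and 6 of 13 isolation genes, beside 8% of all genes. Of the 7 MAP kinases, 7 MAP kinase kinases, 11 genes of the Ras and Raf route, 13 substrates and 8 atypical phosphatases 0 passed with edgeR or DESeq2, with 0, 2, 1, 2 and 0 at an unadjusted p below 0.05. The log2 fold change was -0.01 for Mapk14, -0.04 for Map2k7, -0.23 for Map2k2, 0.01 for Rasgrp1 and 0.16 for the adaptor gene Grb2. It was 0.01 for Elk4, 0.20 for Mknk2, 0.02 for Dusp11 and 0.17 for the pseudophosphatase gene Styx. Dusp8 was not called at 0 h or 24 h. At 24 h 0 genes of any of these lists passed with edgeR or DESeq2, and the unadjusted counts were 0 of 7 kinases, 0 of 7 kinase kinases, 0 of 11 Ras and Raf genes, 0 of 10 brakes, 1 of 13 substrates, 1 of 8 atypical phosphatases, 2 of 9 genes induced through ERK and 5 of 13 isolation genes. Such a p was found at 24 h for 7.06% of all genes. The log2 fold change at 24 h was 0.07 for Mapk14, -0.15 for Map2k7, -0.10 for Map2k2, 0.14 for Rasgrp1 and 0.11 for Grb2. It was 0.12 for the Ras inhibitor gene Rasa3, -0.19 for the ERK phosphatase gene Ptpn7, -0.05 for Elk4, 0.07 for Mknk2, 0.09 for Dusp11 and -0.10 for Styx. Among the early genes it was -0.27 for Egr1, -0.08 for Myc and -0.19 for Nr4a1. No gene of these lists passed the interaction test with edgeR or DESeq2, with the unadjusted counts at 1 of 7 kinase kinases, 1 of 10 brakes, 1 of 13 substrates, 1 of 8 atypical phosphatases, 3 of 9 genes induced through ERK and 3 of 13 isolation genes. Over all genes 5.24% had an unadjusted p below 0.05 in the interaction test. In that test Spry1 had a log2 difference of 0.51 (adjusted p = 0.757 by edgeR) and Myc of 0.42 (adjusted p = 0.84 by edgeR).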

How the data were processed

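Total RNA (100 ng) of cells above 95% pure went into NuGen Ovation libraries with depletion of ribosomal RNA by probes, per the labels' protocols. The authors deposited raw read counts per gene symbol. The submitters' processing notes name STAR 2.6.0c, DESeq and the human build hg19, although the symbols are those of mouse, which leaves the build uncertain. Counter, annotation and strandedness: not given in the sources used here. In each file 5 closing entries name no gene and were left out (22.8% to 35.4% of reads in no feature, 25.7% to 30.9% aligned to several places, 0.412% to 0.576% ambiguous).

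Counts were scaled with TMM and filtered by filterByExpr (minimum count 10, minimum total 15), which kept 10981 genes. Groups were compared by the quasi-likelihood test of edgeR 4.0.16 (R 4.3.3), robust, with 1 fit of the 4 groups and Benjamini-Hochberg adjustment over these genes. The standard error is the log2 fold change over the square root of F, and intervals use its t distribution. The script was tested on simulated data. Replicates differed by more than sampling noise (chi-square per gene 3.15 to 14.7). DESeq2 1.42.0, other scalings and filters, fewer groups and left-out libraries were alternatives. The members and lists were chosen with earlier results of these data known. Of each list, per comparison, up to 3 passing genes with the smallest p were named, otherwise up to 2 of the highest mean CPM (in the interaction only Myc, and Spry1 outside the rule, chosen after its values were seen). The isolation genes that rose over time were also named outside the rule. A gene under this rule is not reported here.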

Additional observations from a re-analysis of the deposited data

How the results depend on the processing

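Dusp1, Dusp5, Dusp7 (lower) and Dusp4 (higher) kept direction and threshold over time in both genotypes under RLE scaling, DESeq2, no filter, a filter at 5 CPM in 3 libraries, fits of only the groups compared, removal of Rn45s and the replicate block, and with each library left out, except Dusp4 in WT as given above, which put the count of members passed in WT at 3 to 4. No member passed between genotypes or in the interaction under any of these. Titles number the replicates 1 to 3, but deviations of same-numbered libraries correlated at -0.0884 to 0.0934, under the 0.1 set for pairing. With the replicate block 4 members passed over time in WT and 4 in KO, 0 between genotypes, and 0 genes in the interaction. Each library correlated best with its own number in 2 of 3 cases over time in either genotype, in 1 of 3 between genotypes at 24 h and in 0 of 3 at 0 h.

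Counts over all genes moved more. Between genotypes at 0 h 38 genes became 59 without a filter, 50 with DESeq2, 24 with only the groups compared and 17 to 33 with 1 library left out (17 without KO 0 h replicate 3, 22 without KO 0 h replicate 2, 25 without WT 0 h replicate 1). At 24 h 30 genes became 28 to 45 under the other alternatives (45 with DESeq2, 43 without a filter) and 14 to 30 with 1 library left out (14 without WT 24 h replicate 2, 16 without KO 24 h replicate 1 or 3). In the interaction 1 gene became 0 with RLE, the stricter filter, removal of Rn45s or the block, 3 without a filter, and 0 to 1 with 1 library left out.

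The sign of some changes that did not pass turned. For Dusp2 over time in KO the log2 change was 0.01 with RLE, 0.00 with DESeq2, 0.03 without a filter, 0.02 with the stricter filter, 0.01 with only the groups compared and 0.00 without Rn45s, and between genotypes at 24 h it was 0.00 with the stricter filter and 0.01 with only the groups compared. With 1 library left out the log2 change between genotypes at 0 h ran from -0.46 to 0.00 for Dusp4, -0.15 to 0.02 for Dusp6, -0.10 to 0.03 for Dusp7, -0.12 to 0.12 for Dusp10 and -0.12 to 0.13 for Dusp16. At 24 h it ran from -0.03 to 0.10 for Dusp1, -0.07 to 0.09 for Dusp2, -0.04 to 0.11 for Dusp4 and -0.12 to 0.01 for Dusp5. Over time in KO it ran from -0.06 to 0.09 for Dusp2, -0.16 to 0.01 for Dusp6 and -0.07 to 0.17 for Dusp10. The cause was not tested.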

Other observations

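For each phosphatase gene the 2 tested genes with the highest Pearson r of log2 CPM over the 12 libraries are given as a description, with no test. All points share the split into 0 h and 24 h libraries. Dusp1 was most like Apol9b (r = 0.999) and Stk10 (0.996), Dusp7 like Sun2 (0.996) and Ppp1ca (0.987), Dusp5 like Rps20 (0.962) and Pdlim7 (0.956), and Dusp4 like Adsl (0.963) and Mettl6 (0.947). Of the genes that did not pass over time, Dusp16 was most like Slu7 (0.949) and Cdca7 (0.94), Dusp6 like Gm9958 (0.903) and Ubap2l (0.876), Dusp2 like Ubap1 (0.897) and Dcaf7 (0.83), and Dusp10 like Prr5l (0.885) and Mmaa (0.88).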
